A study of Mus musculus with 6 samples.

Results

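The endocannabinoid system was followed through 9 genes: the cannabinoid receptor gene Cnr1, the synthesis genes Dagla, Daglb and Napepld, the breakdown genes Mgll, Faah and Abhd6, and the paralogues Abhd12 and Abhd12b of the ABHD (alpha/beta hydrolase domain) family. They were 9 of the 24513 gene rows in the deposited count tables, and all 9 were among the 15894 genes with enough reads to be tested. Abhd12b was chosen by its low read counts in NS-DADm libraries, already seen in this comparison, so its difference between the groups is given as a description with no test. The other 8 were taken for their known function, with earlier results of these data known.

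RNA was measured in the hypothalamus of 3 NS-DADm mice and 3 wild-type (WT) mice, one library per mouse. Mice of both groups were C57BL/6 and 3 to 4 months old, and no treatment is named for either. NS-DADm is known as a mouse line with altered deacetylase activating domains in nuclear receptor corepressors, the domains through which these proteins bind and switch on the histone deacetylase HDAC3. Ncor1, a corepressor gene, and Hdac3 gave 0 calls of 2 with the edgeR test used below and 1 with an unadjusted p under 0.05, which does not check the labels, since an altered domain need not change the RNA level.

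Endocannabinoids are lipid messengers that neurons make from membrane lipids on demand. The best known are 2-arachidonoylglycerol (2-AG) and anandamide, which travel back across the synapse to the receptor CB1 and lower transmitter release. In the hypothalamus this signalling is known for its part in feeding and in the stress hormone axis. Diacylglycerol lipases make 2-AG, which is cleaved mainly by monoacylglycerol lipase and to a smaller part by ABHD6 and ABHD12, while NAPE-PLD makes anandamide and related lipids and FAAH cleaves them. ABHD12 is best known as a brain lipase for lysophosphatidylserine, a signalling lipid of immune cells, and the role of ABHD12B is little known. In mm10 (GENCODE M21), Cnr1 lies at chr4:33924593-33948831 and Mgll at chr6:88724412-88828360, both on the plus strand, as do Daglb at chr5:143464584-143505942 and Abhd6 at chr14:8002902-8056763. Dagla at chr19:10245265-10304877, Faah at chr4:115967145-116017926 and Napepld at chr5:21662901-21701396 lie on the minus strand.

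RefSeq promoter windows of the mouse build GRCm38.p6, each 300 bases long with 250 bases before the transcript start and 50 from it on, were found for 7 of the 9 genes (11 windows in all, since some genes have several starts). Nuclear receptors, the partners of these corepressors, are known to bind DNA at variants of the half-site AGGTCA, so the letters AGGTCA were searched on both strands. They stood in 2 of the 11 windows, 1 of Abhd12b and 1 of Cnr1, and in 5340 of the 32851 mouse promoter windows (16.3%). TATAAA, the core of the TATA box, was in 0 of the 11 windows and in 13.6% of all windows. The windows below belong to Abhd12b (chr12:70153881-70154180, plus strand), to Mgll (chr6:88724162-88724461, plus strand) and to Napepld (chr5:21701573-21701872, minus strand), shown because these were the members furthest below WT. Capitals mark the half-site, which lies in the Abhd12b window on the opposite strand, at position -92 from the start.
Abhd12b: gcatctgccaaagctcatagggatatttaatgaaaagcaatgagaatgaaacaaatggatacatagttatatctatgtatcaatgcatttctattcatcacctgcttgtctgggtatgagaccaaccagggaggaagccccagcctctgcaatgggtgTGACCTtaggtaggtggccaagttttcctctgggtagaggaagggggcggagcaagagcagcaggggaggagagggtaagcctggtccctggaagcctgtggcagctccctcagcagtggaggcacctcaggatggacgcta
Mgll: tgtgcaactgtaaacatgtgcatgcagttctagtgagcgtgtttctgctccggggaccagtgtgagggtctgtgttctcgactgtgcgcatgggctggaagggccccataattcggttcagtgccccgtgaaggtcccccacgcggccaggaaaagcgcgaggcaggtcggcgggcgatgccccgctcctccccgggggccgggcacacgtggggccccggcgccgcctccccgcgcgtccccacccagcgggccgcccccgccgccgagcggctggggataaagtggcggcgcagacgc
Napepld: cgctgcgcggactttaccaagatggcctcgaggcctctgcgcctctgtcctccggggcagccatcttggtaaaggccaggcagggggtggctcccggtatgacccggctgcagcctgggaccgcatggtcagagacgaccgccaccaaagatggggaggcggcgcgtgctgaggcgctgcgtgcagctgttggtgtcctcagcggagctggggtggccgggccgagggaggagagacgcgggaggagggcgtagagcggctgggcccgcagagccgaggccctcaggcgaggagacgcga
The Abhd12b window held 2 CpG pairs, fewer than the 5 to 42 of the other 10 windows, and 14.1% of all promoter windows held fewer than that, where the median was 7.0. The Mgll window shown held 32 and the Napepld window 28. These counts describe the letters only, and no binding or methylation was measured.

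The libraries held 24.2 to 27.5 M reads on genes in NS-DADm mice and 26.5 to 27.6 M in WT mice, with 18766 to 18916 genes detected. Levels are given as CPM (read counts scaled to a common library size of 1e6 reads on genes, after TMM scaling). All 14 listed thalamus markers, which mark the brain region next to the hypothalamus, were lower in each NS-DADm library than in any WT library, with a summed level of 669, 580.0 and 659 CPM in NS-DADm mice and 1375, 878 and 1087 CPM in WT mice. None of the 14 was at 0. Anterior pituitary markers (10 of 10 with reads) summed to 203, 2022 and 199 CPM in NS-DADm mice, so that replicate 2 stood apart. In WT mice they summed to 39.9 to 111 CPM, and 4 of the 10 were higher in NS-DADm mice with no overlap. Of the 8 mature oligodendrocyte markers 4 were lower and 1 was higher with no overlap, and their sums were 4199 to 4837 CPM in NS-DADm mice and 4834 to 5218 CPM in WT mice. Of the 6 microglia markers 3 were lower with no overlap (208 to 217 CPM in sum in NS-DADm mice, 232 to 241 CPM in WT mice). The 5 neuron markers, 3 of them lower with no overlap, summed to 3232 to 3247 CPM in NS-DADm mice and 3429.9 to 3621 CPM in WT mice. Sums of astrocyte, striatum and choroid plexus markers overlapped, while 2 of 5 astrocyte markers were lower, and 1 of 7 striatum and 2 of 5 choroid plexus markers higher, with no overlap. Of the 7 blood cell markers, the haemoglobin genes Hba-a1, Hba-a2, Hbb-bt and Hbb-bs were at 0 in all 6 libraries, and 2 others were higher in every NS-DADm library, with sums over the list of 1.43 to 2.51 CPM in NS-DADm mice and 0.987 to 1.59 CPM in WT mice. Beyond the fit with the thalamus markers described below, the part of these marker differences in the results was not tested. The 10 hypothalamus markers were all detected, with sums of 685 to 807 CPM in NS-DADm mice and 663 to 722 CPM in WT mice. Of these 10, 1 was higher in NS-DADm mice with no overlap. The edgeR test used below was passed by 5 of 14 thalamus and 1 of 8 oligodendrocyte markers, all lower in NS-DADm mice. It was also passed by 1 of 10 hypothalamus markers, higher, and by none of the other lists, where 0.654% of all genes passed. In such bulk samples, fewer cells of a type and less RNA per cell cannot be told apart.

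Abhd12b had 6, 2 and 9 reads in the NS-DADm libraries and 189, 69 and 96 reads in the WT libraries. Exact 95% Poisson intervals, which cover counting error only, ran from 0.242 to 7.22 reads for the lowest NS-DADm library and from 53.7 to 87.3 reads for the lowest WT library. In CPM this was 0.245, 0.0724 and 0.342 CPM in NS-DADm mice, against 6.91, 2.52 and 3.64 CPM in WT mice. Every NS-DADm library was thus far below every WT library, while the WT libraries themselves differed 2.74-fold between the highest and the lowest. The means were 0.220 ± 0.137 CPM in NS-DADm mice and 4.36 ± 2.28 CPM in WT mice (SD, n = 3 each), so the NS-DADm mean was 5.05% of the WT mean. The fitted log2 fold change was -4.30 ± 0.61 (SE), the lowest of the 15894 genes tested, and it was -1.94 in a fit with the mean thalamus marker level as a covariate. Among WT mice, replicate 1 had both the highest Abhd12b level and the highest thalamus marker sum, and replicate 2 the lowest of both. Among NS-DADm mice replicate 2 was again lowest in both, while Abhd12b was highest in replicate 3 and the marker sum in replicate 1. The gene lies at chr12:70154142-70183887 on the plus strand (mm10, GENCODE M21) and overlaps no other annotated gene.

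Abhd12, its paralogue at chr2:150832493-150904741 on the minus strand, was the most abundant of the 9 genes. It stood at 190.1, 208 and 191 CPM in NS-DADm mice and at 206, 207 and 216 CPM in WT mice. The groups overlapped, and the log2 fold change of -0.09 ± 0.05 (SE) did not pass the test (edgeR quasi-likelihood F test, Benjamini-Hochberg adjusted p = 0.545). For every 1000 Abhd12 reads there were 1.29, 0.348 and 1.79 Abhd12b reads in NS-DADm mice, against 33.6, 12.2 and 16.8 in WT mice. Within each library, then, Abhd12b was the minor paralogue, and more so in the NS-DADm libraries. The log2 ratio, with 0.5 added to each count, averaged -9.90 ± 1.12 in NS-DADm mice and -5.71 ± 0.74 in WT mice (SD, n = 3 each), a difference of -4.19. Without NS-DADm replicate 2, which had 2 Abhd12b reads, the difference was -3.56. The best-scoring match between the transcripts of the pair was 81.2% identical over 85 bases, and the closest other transcript to Abhd12b was that of Tyr (90.3% over 186 bases).

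Among the genes of 2-AG breakdown, Mgll passed the test, and Abhd6 and Abhd12 did not. Mgll, which encodes monoacylglycerol lipase, the main 2-AG hydrolase of the brain, stood at 54.8, 52.6 and 52.0 CPM in NS-DADm mice, against 80.8, 65.6 and 76.7 CPM in WT mice. All 3 NS-DADm libraries were below all 3 WT libraries, and the NS-DADm libraries lay close together. Mgll fell in NS-DADm mice by 28.5% (log2 fold change -0.48 ± 0.07 SE, edgeR adjusted p = 0.0115). The call was lost without WT replicate 3 (adjusted p = 0.0771 with edgeR), NS-DADm replicate 2 (0.118) or NS-DADm replicate 3 (0.111), with log2 fold changes of -0.57 to -0.42 over the 6 fits that left out a library. With the thalamus marker level as a covariate the log2 fold change was -0.09 (edgeR adjusted p = 0.867). The covariate does not overlap between the groups either, so genotype and marker level cannot be told apart by such a fit.

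**Figure D1:**
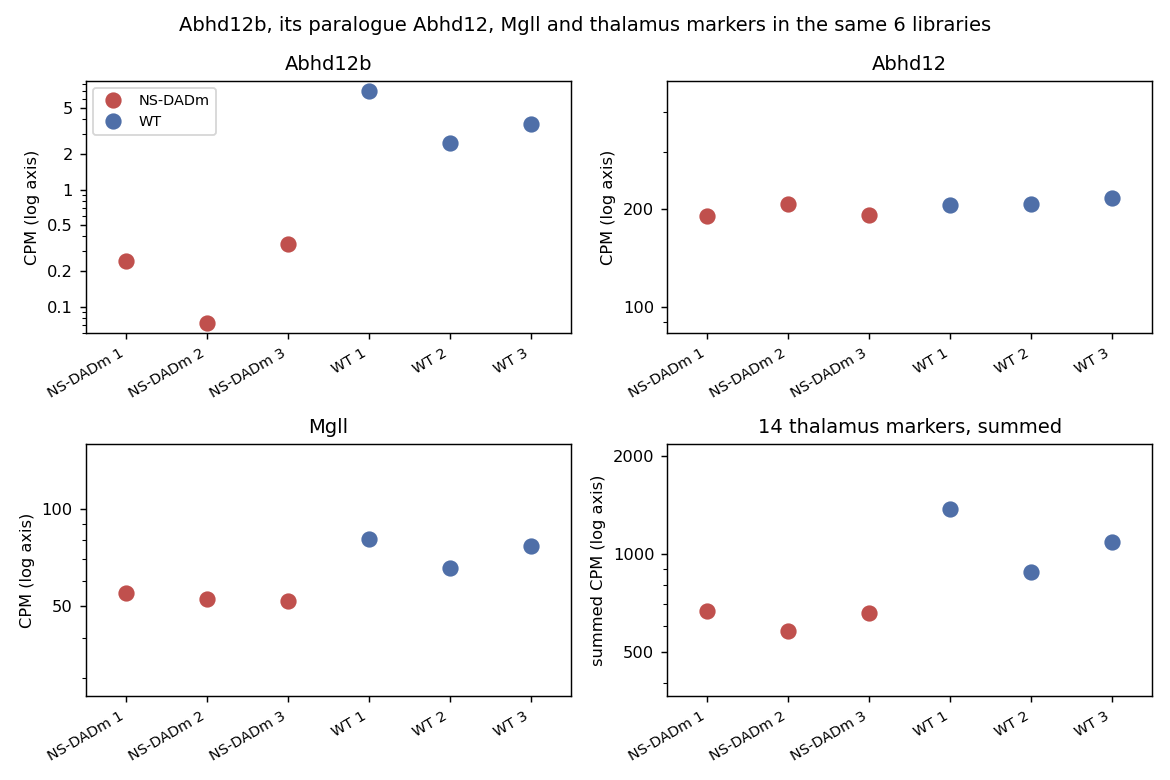
Levels of Abhd12b, Abhd12 and Mgll (CPM) and the summed level of the 14 thalamus markers in each library, 1 panel each, NS-DADm left (red) and WT right (blue), on log axes. Abhd12b lies at 0.0724 to 0.342 CPM in NS-DADm mice and at 2.52 to 6.91 CPM in WT mice, Abhd12 stays between 190.1 and 216 CPM in all 6 libraries, and Mgll and the markers are lower in every NS-DADm library.

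Abhd6, a membrane-bound 2-AG hydrolase on the postsynaptic side, stood at 25.9, 24.98 and 24.2 CPM in NS-DADm mice and at 29.3, 26.9 and 31.7 CPM in WT mice. The groups did not overlap, yet the log2 fold change of -0.22 ± 0.07 (SE) did not pass the test over all genes (edgeR adjusted p = 0.238, unadjusted p = 0.0083). Part of its transcript, 623 bases, is 96.1% identical to the predicted gene Gm1833, so its count is uncertain. Per exon length, in RPKM (CPM per kilobase of exon), Mgll made up 12.1, 10.95 and 11.6% of the summed level of the 2-AG hydrolase genes Mgll, Abhd6 and Abhd12 in NS-DADm mice, and 15.7, 13.2 and 14.4% in WT mice. The share of Abhd12 was 75.6, 77.9 and 76.8% in NS-DADm mice and 72.1, 75.1 and 72.9% in WT mice. The Mgll share was lower in each NS-DADm library than in any WT library and the Abhd12 share higher, while the Abhd6 share overlapped (11.7 ± 0.578% in NS-DADm mice and 12.2 ± 0.55% in WT mice, SD, n = 3 each).

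**Figure D2:**
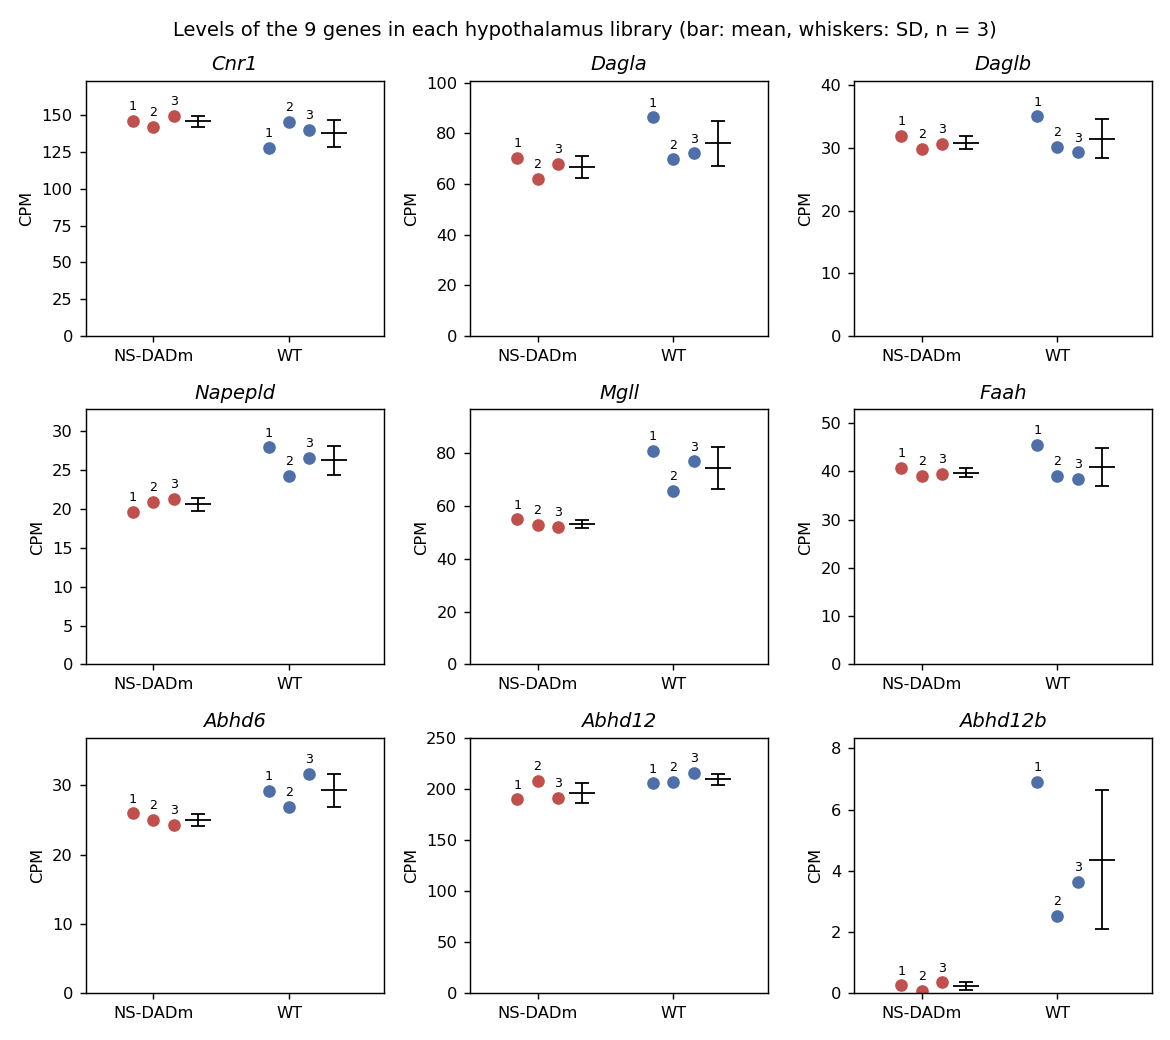
CPM of each of the 9 genes in every library (points) with the group mean (bar) and SD (whiskers, n = 3), NS-DADm left and WT right. Abhd12b, Mgll, Napepld and Abhd6 show no overlap between the groups, and the other 5 genes overlap.

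The 2-AG synthesis genes did not pass the test. Dagla, which encodes the diacylglycerol lipase known as the main source of 2-AG in the adult brain, stood at 70.3, 61.9 and 67.9 CPM in NS-DADm mice and at 86.3, 69.7 and 72.1 CPM in WT mice. WT replicate 1 was well above the other 5 libraries, and the remaining WT values overlapped those of NS-DADm mice (log2 fold change -0.19 ± 0.08 SE, edgeR adjusted p = 0.421). With the thalamus marker covariate the sign turned, to 0.28. Daglb, the second diacylglycerol lipase and the one more used in immune cells, stood at 31.9, 29.9 and 30.7 CPM in NS-DADm mice and at 35.0, 30.1 and 29.3 CPM in WT mice (log2 fold change -0.03 ± 0.07 SE, edgeR adjusted p = 0.933). Its row is uncertain, since Daglb overlaps Rac1 on the opposite strand and the strand setting of the counting is not given in the sources used here. Dagla, Mgll, Napepld and Abhd12 also overlap annotated genes. None of those has a count row, so their reads were not counted apart. For Mgll the closest other transcript was that of the overlapping Gm26588 (100% identical over 90 bases). The ratio of Mgll to Dagla in CPM was 0.780, 0.849 and 0.765 in NS-DADm mice and 0.936, 0.940 and 1.06 in WT mice, with no overlap. It sets a breakdown gene against a synthesis gene and leaves out Daglb, Abhd6 and Abhd12. No enzyme or lipid was measured.

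On the anandamide side, Napepld, which encodes the phospholipase D that releases anandamide and related N-acylethanolamines, stood at 19.6, 20.9 and 21.3 CPM in NS-DADm mice, against 27.9, 24.3 and 26.55 CPM in WT mice. The groups did not overlap, and the log2 fold change was -0.35 ± 0.07 (SE) with an edgeR adjusted p of 0.0502, just over the threshold. DESeq2 gave an adjusted p of 0.0165, edgeR with no count filter 0.0180, edgeR without WT replicate 1 0.0367 and edgeR without WT replicate 2 0.0198. The threshold was missed with limma voom (0.0614), a minimum mean of 1 CPM (0.0620), upper quartile factors (0.0602) and RLE factors (0.0518), without any 1 of the NS-DADm libraries (0.146 to 0.223) and without WT replicate 3 (0.191), all adjusted p-values of limma or edgeR. With the thalamus marker covariate the log2 fold change was -0.13 (edgeR adjusted p = 0.846). Faah, whose enzyme cleaves anandamide, stood at 40.8, 39.0 and 39.5 CPM in NS-DADm mice and at 45.5, 39.0 and 38.4 CPM in WT mice. The groups overlapped, with WT replicate 1 above all other libraries (log2 fold change -0.04 ± 0.07 SE, edgeR adjusted p = 0.893).

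Cnr1, the gene of the CB1 receptor, was the one member with a fitted change above 0. It stood at 146, 142 and 149.6 CPM in NS-DADm mice and at 128, 146 and 140.0 CPM in WT mice. The groups overlapped, and the log2 fold change of 0.08 ± 0.05 (SE) did not pass the test (edgeR adjusted p = 0.657). An approximate 95% interval, from the SE and a normal quantile, ran from -0.03 to 0.19 on the log2 scale. A normal quantile gives too narrow an interval for so few libraries, so it does not bound the difference. With the thalamus marker covariate the sign turned, to -0.10 (edgeR adjusted p = 0.825). The interval belongs to the fit without the covariate and is no measure for this value.

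**Figure D3:**
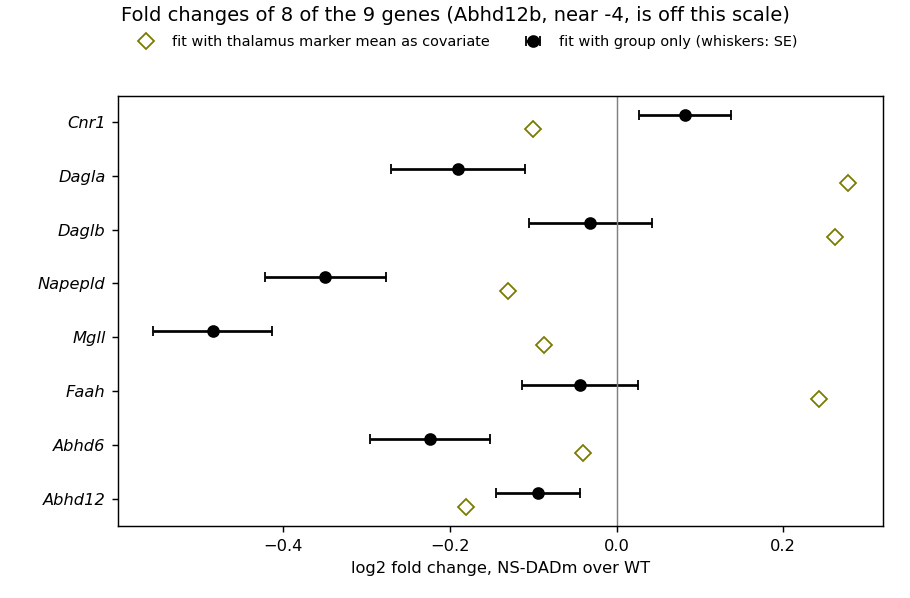
Fitted log2 fold change, NS-DADm over WT, of the 8 genes other than Abhd12b (filled points, whiskers 1 SE) and the value with the thalamus marker covariate (open diamonds). Mgll lies at -0.48 and Napepld at -0.35, and with the covariate at -0.09 and -0.13, while Cnr1, Dagla, Daglb and Faah change sign.

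Of the 8 genes other than Abhd12b, 1 was called, Mgll, lower in NS-DADm mice. Over all genes tested 104 of 15894 were called (0.654%), 91 of them lower (0.573%) and 13 higher (0.0818%). With unadjusted p under 0.05, 4 of the 8 were lower and 0 higher, where 10.9% of all genes passed in either direction. For 3 of the 8 the NS-DADm libraries were all below the WT libraries, where 8.93% of all genes had that pattern, 7.86% had the opposite one and 16.8% had either, and the other 5 overlapped. The median log2 fold change of the 8 was -0.14, beside 0.004 over all genes tested. Since the members were chosen with these results known, nothing is read from these shares. With DESeq2 2 of the 8 were called, Mgll and Napepld, where 282 of all genes were (1.77%). The calls over all genes numbered 5, 8 and 10 without NS-DADm replicate 2, NS-DADm replicate 3 and WT replicate 3, and 312 and 262 without WT replicates 1 and 2. Of the 8 genes, 0 were called without NS-DADm replicate 2, NS-DADm replicate 3 or WT replicate 3, and 2 without WT replicate 1 or 2. In the fit with the thalamus marker covariate the median of the 8 genes was -0.06 and 0 of them were called, where 10 of all genes were (0.0629%), 0 of them among the 104 called without it.

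**Figure D4:**
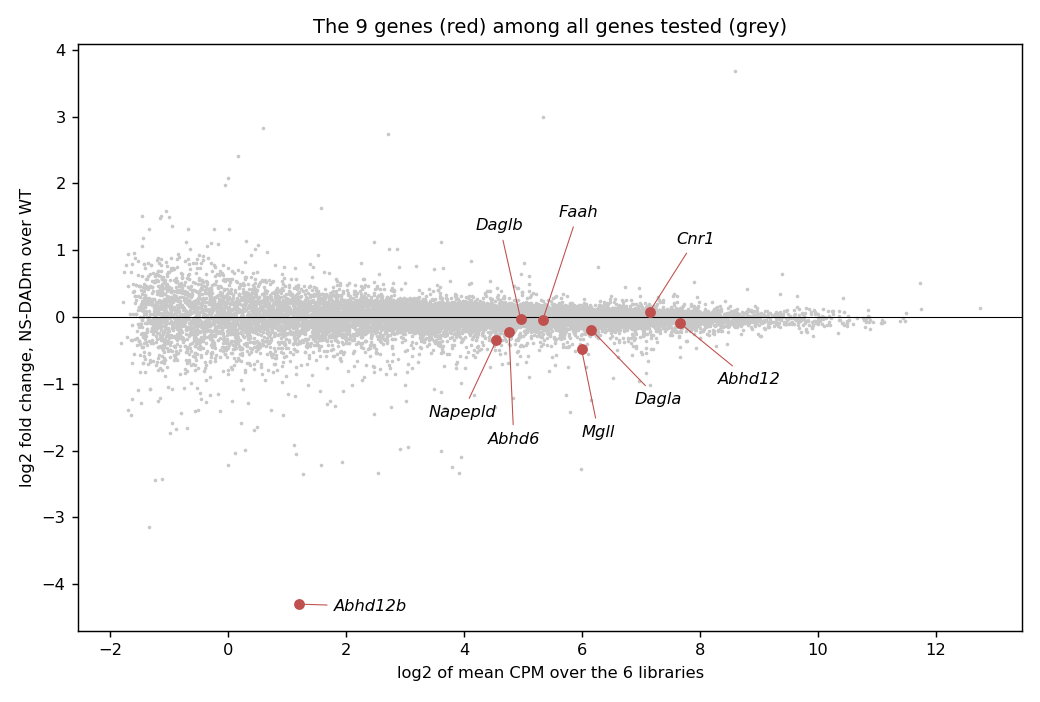
Fitted log2 fold change (NS-DADm over WT) against mean level (log2 CPM) for the 15894 genes tested, in grey, with the 9 genes in red. Abhd12b lies lowest of all genes at -4.30, and the other 8 lie between -0.48 and 0.08.

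Levels of different genes can be set side by side only per exon length. In NS-DADm mice the order in RPKM was Abhd12 (69.6 ± 3.54), Cnr1 (22.6 ± 0.583), Dagla (11.6 ± 0.746), Abhd6 (10.6 ± 0.363), Mgll (10.5 ± 0.294), Napepld (5.20 ± 0.221), Faah (5.08 ± 0.116), Daglb (3.22 ± 0.106) and Abhd12b (0.0558 ± 0.0347, SD, n = 3 each). In WT mice it was Abhd12 (74.3 ± 2.03), Cnr1 (21.4 ± 1.41), Mgll (14.6 ± 1.55), Dagla (13.2 ± 1.56), Abhd6 (12.4 ± 1.02), Napepld (6.63 ± 0.464), Faah (5.23 ± 0.503), Daglb (3.29 ± 0.324) and Abhd12b (1.11 ± 0.579, SD, n = 3 each). Dagla, Abhd6 and Mgll followed each other in both groups, and neighbours among them had overlapping ranges over the libraries. Within single libraries, Mgll was below Dagla in all 3 NS-DADm libraries and above it in all 3 WT libraries. Napepld and Faah overlapped in NS-DADm mice and did not in WT mice.

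The genes around Abhd12b on chromosome 12, the nearest 4 with a count row on each side, gave 0 calls of 8 with edgeR, DESeq2 and limma voom, and 1 unadjusted p under 0.05. That 1 was Trim9, a ubiquitin ligase of neurons, with a log2 fold change of -0.17 ± 0.06 (SE, edgeR adjusted p = 0.333). All 8 overlapped between the groups, as did 13226 of the 15894 genes tested, and their median log2 fold change was -0.06. Over all genes 0.654% were called with edgeR and 10.9% had an unadjusted p under 0.05, so these counts say little about 8 genes. Pygl, the liver form of glycogen phosphorylase, lies 6924 bases away on the opposite strand and stood at 10.4, 11.8 and 12.5 CPM in NS-DADm mice and at 12.3, 10.6 and 10.9 CPM in WT mice (log2 fold change 0.04 ± 0.10 SE). Nin, a centrosome gene 40425 bases away, had a log2 fold change of -0.14 ± 0.08, the endoplasmic reticulum thioredoxin gene Tmx1 0.05 ± 0.06, Sav1, of the Hippo pathway, -0.10 ± 0.09, and Atl1, of endoplasmic reticulum shape, -0.02 ± 0.05 (SE). The pseudogene Gm3086 (0.43 ± 0.31) and the noncoding RNA gene F730035M05Rik (-0.24 ± 0.34) had the widest errors. The fitted log2 fold change of Abhd12b, -4.30, was far outside the range of these 8. Abhd12b was chosen by its low counts and was the lowest of all genes tested, so this was fixed in advance.

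**Figure D5:**
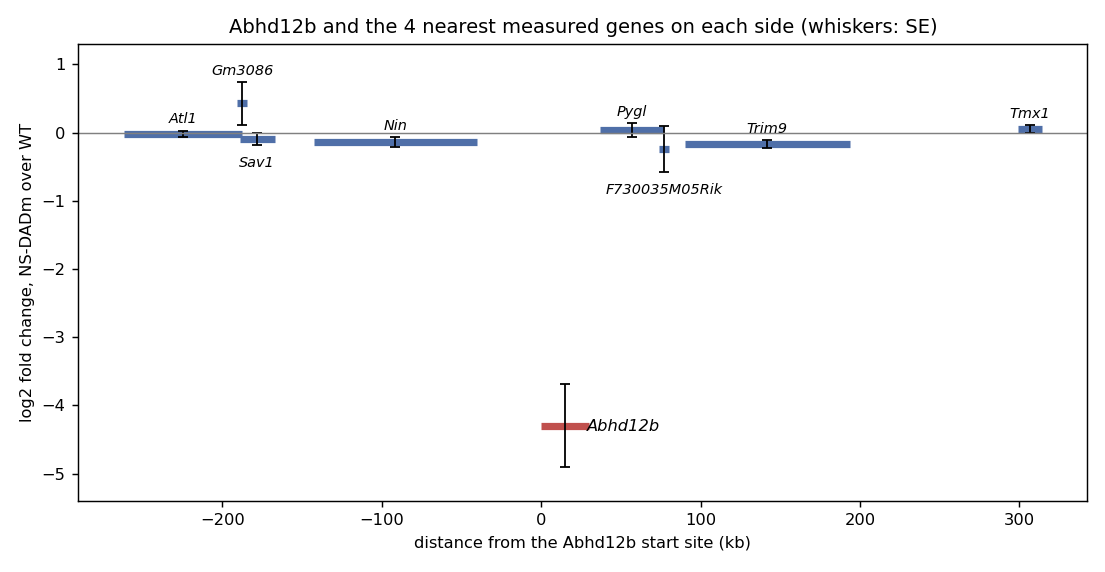
Fitted log2 fold change (NS-DADm over WT, whiskers 1 SE) of Abhd12b (red) and its 8 nearest genes with count rows (blue), each bar spanning the gene at its distance in kb from the Abhd12b start. Abhd12b lies at -4.30, and the neighbours lie between -0.24 and 0.43.

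Across the 6 libraries, the 14533 genes whose mean level reached 1 CPM were ranked by how closely their standardised log2 CPM profile followed that of Abhd12b (root mean square difference). The closest were Brap (0.0518), a ubiquitin ligase of Ras signalling, Coro2b (0.0790), an actin-binding coronin, Smim13 (0.1003), Szrd1 (0.104) and Rgs4 (0.107), a regulator that shortens G protein signals. The measure ignores the size of the change. Brap stood at 54.3, 52.1 and 54.4 CPM in NS-DADm mice and at 59.4, 57.6 and 58.3 CPM in WT mice. Rgs4 stood at 167, 161 and 174 CPM in NS-DADm mice and at 212, 196 and 199.8 CPM in WT mice, with the same order of libraries as Abhd12b. The differences of these genes are small beside that of Abhd12b. Coro2b, Smim13 and Rgs4 were called (edgeR adjusted p = 0.0257, 0.0336 and 0.0281), and Brap and Szrd1 were not (0.395 and 0.680). These genes were picked by their likeness in the same libraries, so nothing is read from their calls. Mgll ranked 180 (0.309) and Napepld 246 (0.342), while Abhd12 ranked 2928 and Cnr1 12543. The 14 thalamus markers ranked between 13 (Plekhg1, 0.139) and 629 (Gbx2, 0.492). All 14 were, like Abhd12b, lower in every NS-DADm library than in any WT library. That alone brings a standardised profile near that of Abhd12b, so nothing is read from these ranks. The part of the thalamus marker difference in this likeness was not tested.

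Of 29 further symbols of the endocannabinoid system (other receptors, synthesis and breakdown enzymes, carriers), 26 had a row and 22 were tested. None was called with edgeR or limma voom and 1 with DESeq2, where edgeR called 0.654% and DESeq2 1.77% of all genes. An unadjusted p under 0.05 was found for 1 higher and 2 lower, where 10.9% of all genes had one. With no overlap between the groups, 5 of the 22 were lower and 1 higher, where 8.93% and 7.86% of all genes were. Their median log2 fold change was -0.004. The call with DESeq2 was Fabp7, a fatty acid binding protein of astrocytes and radial glia that carries endocannabinoids, at 14.1, 11.9 and 11.0 CPM in NS-DADm mice, against 22.0, 16.2 and 16.9 CPM in WT mice. Its groups did not overlap, with a log2 fold change of -0.58 ± 0.13 (SE), an edgeR adjusted p of 0.0821 and a DESeq2 adjusted p of 0.0022, and with the thalamus marker covariate the value was 0.03. It passed the edgeR test without WT replicate 1 (adjusted p = 0.0307) or WT replicate 2 (0.0248). Fabp5, a related carrier, stood at 61.9, 62.2 and 63.4 CPM in NS-DADm mice and at 69.5, 68.3 and 71.8 CPM in WT mice (edgeR adjusted p = 0.217). Naaa, a lysosomal amidase of N-acylethanolamines, stood at 30.8, 36.0 and 31.1 CPM in NS-DADm mice and at 28.2, 25.7 and 28.7 CPM in WT mice (log2 fold change 0.25 ± 0.08 SE, edgeR adjusted p = 0.214). Its groups did not overlap either, in the higher direction. Gde1, a phosphodiesterase of another anandamide route, had a log2 fold change of -0.09 ± 0.05 (SE, edgeR adjusted p = 0.556).

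Receptors coupled to Gq and the phospholipase C beta enzymes they switch on are known to supply the diacylglycerol from which 2-AG is made. All 9 listed genes of this step were tested, and 1 was called with edgeR, lower in NS-DADm mice, where 0.654% of all genes were called. An unadjusted p under 0.05 was found for 1 higher and 2 lower of the 9, where 10.9% of all genes had one. The called gene was Plcb4, a phospholipase C beta that also stands in the thalamus marker list. It stood at 117, 121 and 121 CPM in NS-DADm mice, against 147, 137 and 145 CPM in WT mice (log2 fold change -0.25 ± 0.05 SE, edgeR adjusted p = 0.0336). The call was lost without NS-DADm replicate 1, 2 or 3 (edgeR adjusted p = 0.102, 0.175 and 0.198) or WT replicate 3 (0.161). With the covariate, whose list holds Plcb4 itself, the log2 fold change was -0.15. Chrm3 and Chrm1, muscarinic acetylcholine receptors, had log2 fold changes of -0.21 ± 0.07 and 0.19 ± 0.08, and the glutamate receptor gene Grm5 -0.07 ± 0.07 (SE, edgeR adjusted p = 0.303, 0.361 and 0.801). Chrm3 passed without WT replicate 1 (edgeR adjusted p = 0.0312). Plcb1, another phospholipase C beta, had a log2 fold change of 0.05 ± 0.05 (SE, edgeR adjusted p = 0.831). The median of the 9 was -0.06.

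Of 22 symbols of other ABHD hydrolases, 18 had a row and 16 were tested, and 0 were called with edgeR, DESeq2 and limma voom. Over all genes edgeR called 0.654% and DESeq2 1.77%, and 10.9% had an unadjusted p under 0.05. The 1 with an unadjusted p under 0.05 was Abhd8, at 192, 184 and 184 CPM in NS-DADm mice and at 226, 196 and 199 CPM in WT mice (log2 fold change -0.15 ± 0.06 SE, edgeR adjusted p = 0.354). Abhd17a, a depalmitoylase of synaptic proteins, stood at 53.9, 54.5 and 55.0 CPM in NS-DADm mice and at 69.4, 55.4 and 56.2 CPM in WT mice, where WT replicate 1 set most of the difference (edgeR adjusted p = 0.552). Abhd4, a lipase of the anandamide precursor route, had a log2 fold change of 0.13 ± 0.08 and 3110057O12Rik, named Abhd18 in RefSeq, 0.12 ± 0.08 (SE, edgeR adjusted p = 0.638 and 0.654). The median of the 16 was 0.02.

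Of 10 listed genes of lysophosphatidylserine, the lipid best known as the substrate of ABHD12, Abhd12 itself among them, 9 had a row and 8 were tested. With edgeR, DESeq2 and limma voom 0 were called, and 0 had an unadjusted p under 0.05. Abhd16a, whose enzyme makes lysophosphatidylserine, had a log2 fold change of 0.07 ± 0.06, Pla1a, of a phosphatidylserine phospholipase, 0.21 ± 0.21, and Lpcat3, of a lysophospholipid acyltransferase, -0.03 ± 0.07 (SE, edgeR adjusted p = 0.745, 0.805 and 0.939). All 8 overlapped between the groups, as did 13226 of the 15894 genes tested, and their median log2 fold change was -0.02. Over all genes 0.654% were called with edgeR and 10.9% had an unadjusted p under 0.05, so little is learned from 0 of 8.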

How the data were processed

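Hypothalamus RNA was sequenced as 6 libraries, 3 from NS-DADm mice and 3 from WT mice, prepared separately from 3 mice per group, per the series' design text. The deposited values were raw read counts per gene symbol. The submitters' processing notes name TopHat2 2.0.9, HTSeq and the mm10 build. The annotation, strand setting and library kit were not stated. Each table ended with 5 classes of unassigned reads, which entered neither the library sizes nor any test. Among them, non-unique alignments made up 14.3 to 16.5% of all entries, reads outside genes 13.3 to 14.8% and ambiguous reads 1.00 to 1.06%, so genes with near-identical copies are undercounted.

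Differences were tested with edgeR 4.0.16 (quasi-likelihood F test, robust, no covariate; R 4.3.3) after filterByExpr and TMM scaling (factors 0.992 to 1.01). Adjustment was by Benjamini-Hochberg over all 15894 genes in the fit, with a threshold of 0.05 for a call. The SE of a log2 fold change is its size over the square root of its F statistic. RPKM divides CPM by the union exon length of GENCODE M21. The common biological coefficient of variation was 6.45%. Alternatives were DESeq2 1.42.0, limma 3.58.1 (voom), other scaling factors and filters, the replicate number as a block, the mean log2 CPM of the thalamus markers as a covariate, and fits without each library.

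The members and gene lists were chosen with earlier results of these data known. Named genes were the 9 members, from each list the called genes and up to 4 more with the smallest p, the genes beside Abhd12b and the 5 with the profile most like it. Some genes of these lists are not reported here. Promoters came from RefSeq, transcript matches from BLAST 2.17.0 and drawings from matplotlib 3.10.9.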

Additional observations from a re-analysis of the deposited data

How the results depend on the processing

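The number of genes called over all genes tested, 104, was 282 with DESeq2, 203 with no count filter and 10 with the thalamus marker covariate, and it ran from 5 to 312 over the fits that left out a library. Of the 8 members other than Abhd12b, 1 was called in the fit as reported, 1 with limma voom and 0 with the covariate. Without a library it was 0 to 2 of the 8. Abhd12b was chosen by its own values, so no call is counted for it, and where its adjusted p fell varied between the alternatives. Its log2 fold change ran from -4.78 to -3.79 without a library and was -1.94 with the covariate. Of the other endocannabinoid genes, 0 as reported, 1 was called with DESeq2, and 0 to 1 without a library. Of the Gq and phospholipase C genes, 1 as reported, 0 were called with the covariate, and 0 to 2 without a library. Counts for the other ABHD genes, the lysophosphatidylserine genes and the genes beside Abhd12b were 0 under every alternative run. The Abhd12b to Abhd12 log2 ratio difference ran from -4.61 to -3.56 without a library.

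Deviations from the group means correlated at 0.12, 0.08 and -0.04 between same-numbered libraries (1, 2 and 3) of the 2 groups. Between differently numbered libraries the correlations ran from -0.12 to 0.05. Correlations this weak do not settle whether the replicate numbers mark pairs. The labels do not say that they do, so the main fit used no block. With the replicate number as a block, 409 genes were called over all genes tested. Among them were 2 of the 8 members other than Abhd12b, Mgll and Napepld (edgeR adjusted p = 0.0200 for Napepld). They also held 1 other endocannabinoid gene and 1 Gq and phospholipase C gene.

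With the thalamus marker covariate the log2 fold change changed sign for 14 of the 38 named genes: Cnr1 (-0.10), Dagla (0.28), Daglb (0.26), Faah (0.24), Fabp7 (0.035), Plcb1 (-0.098), Abhd8 (0.12), Abhd17a (0.23), Abhd4 (-0.14), Lpcat3 (0.029), Atl1 (0.046), Nin (0.31), Trim9 (0.091) and Tmx1 (-0.23). The cause was not tested. Over the fits that left out a library, the sign changed for Daglb (-0.081 to 0.055), Faah (-0.088 to 0.042), Lpcat3 (-0.052 to 0.0046), Atl1 (-0.033 to 0.0047), Pygl (-0.018 to 0.110), Plcb1 (-0.0043 to 0.085) and Tmx1 (-0.014 to 0.091), none of them called. With 3 mice per group, and 2 to 9 Abhd12b reads per NS-DADm library, depth limits how well the Abhd12b level in NS-DADm mice is known.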
